A study of Mus musculus with 4 samples.

Results

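Type I interferon antiviral genes were followed in bulk RNA from samples described as tumour-infiltrating CD8 T cells. The set was a named list of 36 genes, of which 34 were found by symbol among the 14082 genes of the tables and 2, Mx1 and Mx2, were not listed. The samples were bulk RNA-seq libraries of flow-sorted CD8 T cells specific for ovalbumin. They were taken from tumours of E.G7, a mouse T lymphoma line that expresses ovalbumin, grown under the skin of mice aged 6 to 10 weeks. The labels name 2 libraries KO, from hosts with the genotype Cd8-cre Smad4-fl/fl, and 2 libraries WT, from hosts with the genotype Smad4-fl/fl, so the floxed Smad4 alleles were common to both groups. The single comparison is KO over WT, and it addresses how loss of Smad4 in CD8 T cells bears on the RNA of these samples. Cre driven from Cd8 sequences need not act in cells of other types, and the labels say neither whether animals were pooled nor whether each library had its own animal. The p-values therefore reflect the variation among these 4 libraries alone, which may be technical.

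Type I interferons bind the receptor IFNAR1/IFNAR2, whose kinases JAK1 and TYK2 pass the signal on. A transcription factor complex that contains STAT2 and IRF9 then binds interferon-stimulated response elements (ISREs) in promoters and switches on genes that sense viral nucleic acid, block viral translation or degrade RNA. Many of these genes also respond to interferon gamma, the interferon that activated CD8 T cells themselves release, and myeloid cells of tumours express them too.

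The ISRE is the sequence feature through which these genes are known to respond, and the promoter stretches of 6 members are shown because they carry it. Sequences are from RefSeq (GRCm38.p6, read on the strand of the gene), lie upstream of the annotated start, and have each match to GAAANNGAAA on either strand in capitals.

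Oas1a, chr5:120907526-120907579, minus strand: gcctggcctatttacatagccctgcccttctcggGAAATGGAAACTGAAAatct
Ifit1, chr19:34640764-34640853, plus strand: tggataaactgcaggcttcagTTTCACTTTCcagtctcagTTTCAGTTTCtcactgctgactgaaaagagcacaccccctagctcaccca
Ifit3, chr19:34583367-34583456, plus strand: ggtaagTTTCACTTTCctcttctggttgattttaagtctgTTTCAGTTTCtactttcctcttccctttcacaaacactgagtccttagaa
Ifit3b, chr19:34607763-34607852, plus strand: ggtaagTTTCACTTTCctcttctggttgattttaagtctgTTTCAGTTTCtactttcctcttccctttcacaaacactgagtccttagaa
Isg15, chr4:156200835-156200924, minus strand: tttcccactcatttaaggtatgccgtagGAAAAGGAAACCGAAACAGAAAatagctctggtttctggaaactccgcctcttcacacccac
Bst2, chr8:71537547-71537636, minus strand: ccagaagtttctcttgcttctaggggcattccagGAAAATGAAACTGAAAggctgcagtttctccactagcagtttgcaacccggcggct

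The stretches of Ifit3 and Ifit3b were identical in all 90 bases, and both genes carry 2 separate ISRE matches, as does Ifit1. In Isg15, Oas1a and Bst2 the matches overlap one another. RefSeq windows from 250 bases before to 50 bases after the start were at hand for 27 of the tested members, and 12 of them held an ISRE match (44.4%), against 420 of 10632 tested genes with a window (3.95%) and 3.44% of all 32851 windows. Among the calls described next, 5 of 12 members that were lower in the libraries labelled KO held it (41.7%), and so did 6 of 14 members that did not pass (42.9%). The lower members Parp14, Zbp1, Dhx58 and Parp9 had no window and are outside that comparison. A second searched motif, TTCNNNGAA, an element of interferon gamma response, was found for 8 of the 27 members with a window (29.6%), against 8.37% of tested genes with a window. The letters of 1 ISRE and 1 TTCNNNGAA match of Bst2 overlap. A match describes the letters of a window and is not a measured binding site.

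**Figure D1:**
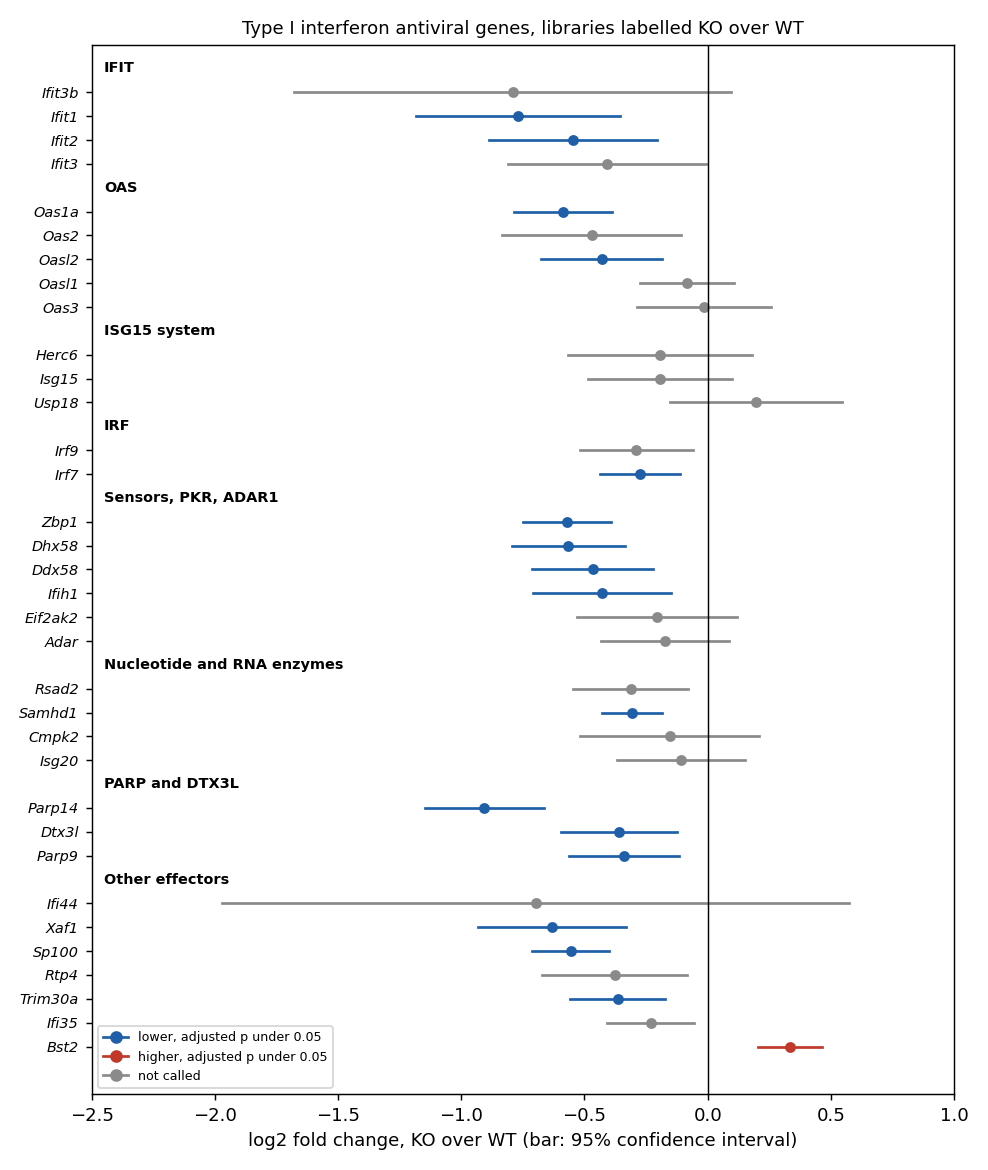
Log2 fold change of each tested member, KO over WT, with its 95% confidence interval from edgeR, grouped by role. Most points lie left of 0, Parp14 lies farthest left among the called genes at -0.91, and Bst2 is the only called gene on the right, at 0.33.

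Before the members, the libraries were checked. Summed gene counts were 25806382 and 26218277 in the KO libraries and 24366540 and 25790107 in the WT libraries. Smad4 itself had 779 and 1088 counts in the libraries labelled KO, against 752 and 736 in those labelled WT (log2 fold change 0.19 ± 0.141 SE, adjusted p = 0.397), so its gene-level count was not lower. A count over the whole gene need not show the loss of floxed exons and does not check the labels, so every direction below is between libraries labelled KO and WT. Markers of CD8 T cells were present in every library, with Cd8a at 239 and 248 CPM in KO and 472 and 455 CPM in WT (CPM, the count scaled by library size and by TMM, a trimmed-mean factor). At an adjusted p under 0.05, 7 of 10 T cell markers were lower, where 11.0% of all 13358 tested genes were lower and 10.1% higher. The T cell markers summed to 2215 and 2197 CPM in KO against 3189.5 and 3245 CPM in WT. The tumour line E.G7 is itself a T lymphoma, and a part of tumour cell RNA in these values was not tested. Transcripts of cells outside the sort were also present, and macrophage and monocyte markers had larger sums than the T cell markers in every library. The values below are therefore those of all RNA in the samples, not of T cells alone. Of 16 macrophage and monocyte markers 2 were higher and 4 lower, with sums of 21702 and 22266 CPM in KO against 20998 and 21801 CPM in WT. With library totals alone 4 of the 16 were higher and 2 lower, and without WT replicate 1 it was 1 higher and 2 lower. Of 20 neutrophil markers 14 were higher, with sums of 4381 and 4621.5 CPM in KO against 2480 and 2431 CPM in WT. Among less abundant types, 4 of 7 tested B cell markers were higher, with sums of 30.3 and 25.5 CPM in KO against 13.6 and 13.7 CPM in WT, and so were 4 of 6 erythroid markers, with sums of 89.3 and 56.2 CPM in KO against 28.7 and 36.2 CPM in WT. Without WT replicate 1 the erythroid number was 2. Of 8 fibroblast and endothelial markers 3 were higher and 1 lower. Mitochondrial genes took 6.57% and 6.99% of counts in KO and 10.4% and 10.2% in WT. The part of these shifts in the results below was not tested, and in bulk RNA fewer cells of a type and less RNA per cell cannot be told apart.

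Antiviral genes were lower by modest amounts in the libraries labelled KO. All 34 listed members passed the filter on low counts. At an adjusted p under 0.05, 16 members fell (47.1%) and 1 rose (2.94%), while 17 missed the threshold, whereas 11.0% of all 13358 tested genes were lower and 10.1% were higher. With library totals alone as the scaling, 11 members were lower and 1 was higher, while 2105 genes of the whole table were higher and 1013 lower, so that 67.5% of all calls were higher in place of 47.9%. Both KO libraries lay below both WT libraries for 26 members (76.5%, against 30.0% of all tested genes), and both lay above for Bst2 alone (2.94%, against 29.7%). The median log2 fold change was -0.36 over the members and -0.0037 over all tested genes. Together the members took 0.139% and 0.138% of counts in the KO libraries and 0.157% in each WT library. With either WT library left out the number of lower members fell, and so did the number of lower genes over the whole table. The median over the members was -0.35 without WT replicate 1 and -0.32 without WT replicate 2.

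The 16 lower members were lower by 1.21-fold (Irf7) to 1.87-fold (Parp14), and Bst2 was 1.26-fold higher. Levels per gene length also ranged widely: by mean deposited FPKM over the 4 libraries Bst2 was highest at 196, then Ifi35 at 32.3 and Isg15 at 28.1, while Ifi44 was lowest at 0.280. Neither Ifi35 nor Isg15 passed the test. Samhd1, next at 25.7 and close to Isg15, did.

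**Figure D2:**
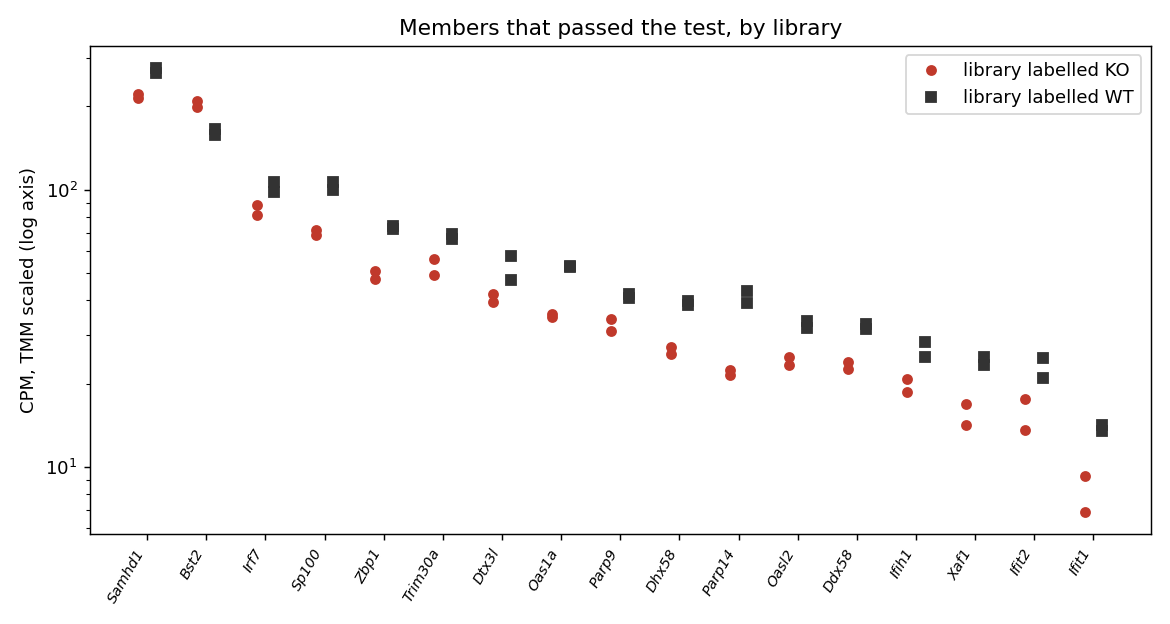
CPM (TMM scaled, log axis) in each library for the 17 members that passed the test, ordered by level. In 16 genes both KO points lie below both WT points, and in Bst2, at 199 and 209 CPM in KO against 166 and 157 CPM in WT, they lie above.

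The largest fall among the called members was in the group of ADP-ribosyltransferases and DTX3L. All 3 of its genes were lower, where 11.0% of all tested genes were lower and 10.1% higher. Parp14, an ADP-ribosyltransferase that acts in interferon and interleukin signalling, had 21.5 and 22.4 CPM in KO libraries, against 43.1 and 39.2 CPM in WT libraries. Its KO values were thus about level with each other and far from the WT values, with a log2 fold change of -0.91 ± 0.111 (SE) and an adjusted p of 9.47e-05. Dtx3l, a ubiquitin ligase that pairs with PARP9, had 42.1 and 39.5 CPM in KO and 57.6 and 47.1 CPM in WT (log2 fold change -0.36 ± 0.108, adjusted p = 0.0321). Parp9 had 31.1 and 34.1 CPM in KO and 40.6 and 42.0 CPM in WT (-0.34 ± 0.103, adjusted p = 0.0326). The groups did not overlap for either gene, although the WT libraries of Dtx3l were spread. Parp9 and Dtx3l lie head to head on chromosome 16 on opposite strands with overlapping exons, and the strand setting of the counting is not given in the sources used here, so reads of the pair may not have been told apart and both values are uncertain. Both lost their calls with library totals alone, Dtx3l also without WT replicate 1 (adjusted p = 0.397), and Parp9 also with DESeq2 and without KO replicate 1 or either WT library (highest adjusted p = 0.199).

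Among 6 genes that sense nucleic acid or act on double-stranded RNA, 4 were lower, where 11.0% of all tested genes were lower and 10.1% higher. Zbp1, a sensor of Z-form nucleic acid that can start necroptosis, had 47.7 and 50.8 CPM in KO and 74.3 and 72.0 CPM in WT (log2 fold change -0.57 ± 0.0820, adjusted p = 0.000343). Its groups were well apart, with replicates close to each other. The 3 RIG-I-like receptors, which detect viral RNA in the cytosol, were all lower. Dhx58 (LGP2), the regulator of the other two, had 25.7 and 27.1 CPM in KO and 38.5 and 39.6 CPM in WT (-0.57 ± 0.106, adjusted p = 0.00223). Ddx58 (RIG-I) had 22.5 and 24.0 CPM in KO and 31.5 and 32.8 CPM in WT (-0.47 ± 0.113, adjusted p = 0.0107). Ifih1 (MDA5) had 18.7 and 20.8 CPM in KO and 28.3 and 24.8 CPM in WT (-0.43 ± 0.128, adjusted p = 0.0315). In each of the 3 the groups did not overlap. Ddx58 lost its call without either WT library (adjusted p up to 0.0964) and Ifih1 in 5 of 13 alternatives (adjusted p up to 0.293). Eif2ak2, the kinase PKR that halts translation on double-stranded RNA, had a log2 fold change of -0.21 ± 0.150, and Adar, which edits double-stranded RNA, -0.17 ± 0.120, and neither passed. Exons of Adar overlap Chrnb2 on the opposite strand.

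Of the 5 oligoadenylate synthetase family genes 2 were lower and 3 did not pass, where 11.0% of all tested genes were lower and 10.1% higher. These proteins make the messenger that activates RNase L, with exceptions among the OAS-like proteins. Oas1a had 35.6 and 34.7 CPM in KO and 52.6 and 53.1 CPM in WT, with tight replicates and no overlap (log2 fold change -0.59 ± 0.0917, adjusted p = 0.000634). Its transcripts share 57.6% of their 50-base stretches with Oas1g, so its reads may be split between the genes and its value is uncertain; Oas1g had a log2 fold change of -0.28 (adjusted p = 0.370). Oasl2 had 23.4 and 25.0 CPM in KO and 31.7 and 33.6 CPM in WT, again without overlap (-0.43 ± 0.113, adjusted p = 0.0165), a call lost without either WT library (adjusted p up to 0.149). Oas2, at 12.1 and 11.3 CPM in KO and 18.1 and 14.3 CPM in WT, had a change of similar size with a wider error (-0.47 ± 0.168, adjusted p = 0.0652), and it passed without KO replicate 1 (adjusted p = 0.0325). Oas3 and Oasl1 gave log2 fold changes of -0.02 and -0.09, with 95% intervals of -0.29 to 0.26 and -0.28 to 0.11, and their libraries overlapped. Oas1a, Oas2 and Oas3 lie together on chromosome 5 (chr5:120730333-120749853 for Oas2, chr5:120753098-120777661 for Oas3 and chr5:120896256-120907521 for Oas1a, GENCODE M21 on GRCm38). Differences between these genes were not tested.

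The 4 IFIT genes, whose proteins bind foreign or unmethylated RNA ends and restrain translation, lay in a cluster on chromosome 19 and had negative fold changes throughout. Ifit1 had 9.25 and 6.89 CPM in KO and 13.4 and 14.1 CPM in WT (log2 fold change -0.77 ± 0.191, adjusted p = 0.0121). Its transcripts share 7.06% of their 50-base stretches with Ifit1bl2. Ifit2 had 17.6 and 13.6 CPM in KO and 20.9 and 24.6 CPM in WT (-0.55 ± 0.157, adjusted p = 0.0262). For both, KO replicate 2 was the lower KO library and the groups did not overlap. Ifit1 lost its call without either WT library (adjusted p up to 0.0716) and Ifit2 with library totals alone and without replicate 2 of either group (adjusted p up to 0.219). Ifit3 had 8.31 and 9.60 CPM in KO and 10.9 and 12.9 CPM in WT (-0.41 ± 0.185, adjusted p = 0.146), and Ifit3b had 1.77 and 1.37 CPM in KO and 2.19 and 3.24 CPM in WT (-0.79 ± 0.408, adjusted p = 0.202). Neither passed in any of 13 alternatives. The printed promoter stretches of Ifit3 and Ifit3b were identical, but their wider windows matched at 201 of 268 compared bases. Ifit3 shares 51.2% of the 50-base stretches of its transcripts with Ifit3b, and the division of reads between them is uncertain.

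Of the transcription factors, Irf7 fell and Irf9 did not pass. Irf7, the factor that amplifies interferon production, had 81.2 and 88.2 CPM in KO and 106 and 98.6 CPM in WT (log2 fold change -0.28 ± 0.0745, adjusted p = 0.0195), the smallest change among the called members. The call was lost with library totals alone and without KO replicate 1 or WT replicate 1 (adjusted p up to 0.179), and exons of Irf7 overlap Phrf1 on the opposite strand. Irf9, the DNA-binding part of the complex at ISREs, had 39.7 and 33.9 CPM in KO and 43.9 and 46.0 CPM in WT (-0.29 ± 0.106, adjusted p = 0.0719). Its groups did not overlap, it passed without KO replicate 1 (lowest adjusted p = 0.00428), and its exons overlap Rnf31 on the same strand.

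Among enzymes that act on nucleotides and RNA, Samhd1 fell. Samhd1, which depletes the deoxynucleotide pool that reverse transcription needs, drew the most reads of any member and had 221 and 214 CPM in KO and 263 and 275 CPM in WT (log2 fold change -0.31 ± 0.0565, adjusted p = 0.00206). The change was small but clear of the replicate spread, and it passed in all 13 alternatives. Rsad2 (viperin), which makes a chain-terminating nucleotide, had 33.4 and 31.3 CPM in KO and 37.7 and 42.7 CPM in WT (-0.31 ± 0.107, adjusted p = 0.0561). Its groups did not overlap and it passed without KO replicate 1 (adjusted p = 0.0178). Cmpk2, its neighbour on chromosome 12 and a nucleotide kinase, had a log2 fold change of -0.15 ± 0.167, and the exonuclease gene Isg20 had -0.11 ± 0.120. Libraries of both overlapped, and WT replicate 2 was the highest library in each.

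The ISG15 system gave no call: none of its 3 genes passed with edgeR, DESeq2 or limma-voom, and none had an unadjusted p under 0.05 with edgeR. Isg15, a ubiquitin-like modifier, had 18.9 and 19.3 CPM in KO and 23.7 and 20.0055 CPM in WT (log2 fold change -0.19, 95% interval -0.48 to 0.10, adjusted p = 0.360). In FPKM it stood at 26.1 and 26.5 in KO and 32.4 and 27.4 in WT. Herc6, which attaches ISG15 to proteins in mice, had a log2 fold change of -0.19 ± 0.172. Usp18, which removes ISG15 and also blocks the interferon receptor, had 22.3 and 16.5 CPM in KO and 17.6 and 16.2 CPM in WT (0.20 ± 0.161, adjusted p = 0.439); KO replicate 1 stood above the other libraries, and without it the value was -0.03. Usp18 was, with Bst2, 1 of 2 members with a positive fold change.

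The remaining effectors contained both further falls and the only rise. Sp100, a nuclear body protein that restrains viral genomes, had 68.6 and 71.7 CPM in KO and 99.9 and 106 CPM in WT (log2 fold change -0.56 ± 0.0728, adjusted p = 0.000163). Xaf1, a pro-apoptotic interferon-induced gene, had 16.9 and 14.2 CPM in KO and 23.3 and 24.9 CPM in WT (-0.63 ± 0.139, adjusted p = 0.00625). Trim30a, a negative regulator of NF-kappaB signalling in mice, had 56.3 and 49.2 CPM in KO and 69.6 and 66.4 CPM in WT (-0.37 ± 0.0896, adjusted p = 0.0114). No group overlapped in these 3. Xaf1 lost its call without WT replicate 2 (adjusted p = 0.0524) and Trim30a without WT replicate 1 (adjusted p = 0.0849). Trim30a shares 5.98% of its 50-base stretches with Trim30d. Rtp4, which binds RNA and restrains flaviviruses, had 25.4 and 20.2 CPM in KO and 27.8 and 31.4 CPM in WT (-0.38 ± 0.135, adjusted p = 0.0680). It passed without KO replicate 1 (adjusted p = 0.00115). Ifi35, a cytosolic interferon-induced protein, had 53.1 CPM in both KO libraries and 61.8 and 62.9 CPM in WT (-0.23 ± 0.0814, adjusted p = 0.0623), and in FPKM 29.8 and 29.7 in KO and 34.4 and 35.1 in WT. Its libraries were close within each group and apart between groups, yet it passed in none of 13 alternatives. Ifi44 was near the floor with 13 and 60 counts in KO and 60 and 47 counts in WT. The low KO replicate 1 set its log2 fold change of -0.70 ± 0.587 (adjusted p = 0.455), which was 0.01 without that library and -2.16 without KO replicate 2 (adjusted p = 0.00601).

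Bst2 (tetherin), which holds budding virus at the cell surface, was the one member to rise. It had 199 and 209 CPM in KO and 166 and 157 CPM in WT, and 213 and 224 FPKM in KO against 177 and 168 FPKM in WT. The groups did not overlap, the log2 fold change was 0.33 ± 0.0603 (adjusted p = 0.00180), and it passed in all 13 alternatives. In mice Bst2 is also a surface marker of plasmacytoid dendritic cells, the chief producers of type I interferon, so it was read beside that cell type's genes. Of a list of 10 such markers that includes Bst2, 8 were higher and 2 were lower, where 10.1% of all tested genes were higher and 11.0% lower. The list summed to 1213 and 1218 CPM in KO against 1095 and 1078 CPM in WT. Siglech, a defining lectin of these cells, had 168 and 174 CPM in KO and 67.1 and 64.9 CPM in WT (1.37 on the log2 scale). Ly6d had 86.1 and 82.1 CPM in KO and 21.2 and 22.0 CPM in WT (1.96), and Cox6a2 had 35.5 and 34.6 CPM in KO and 14.2 and 14.8 CPM in WT (1.27). Irf8 fell by 0.60 and Pacsin1 by 0.41 on the log2 scale, the Pacsin1 call being lost with library totals alone and without either WT library (highest adjusted p = 0.157). The part of these cells in the rise of Bst2 was not tested.

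**Figure D3:**
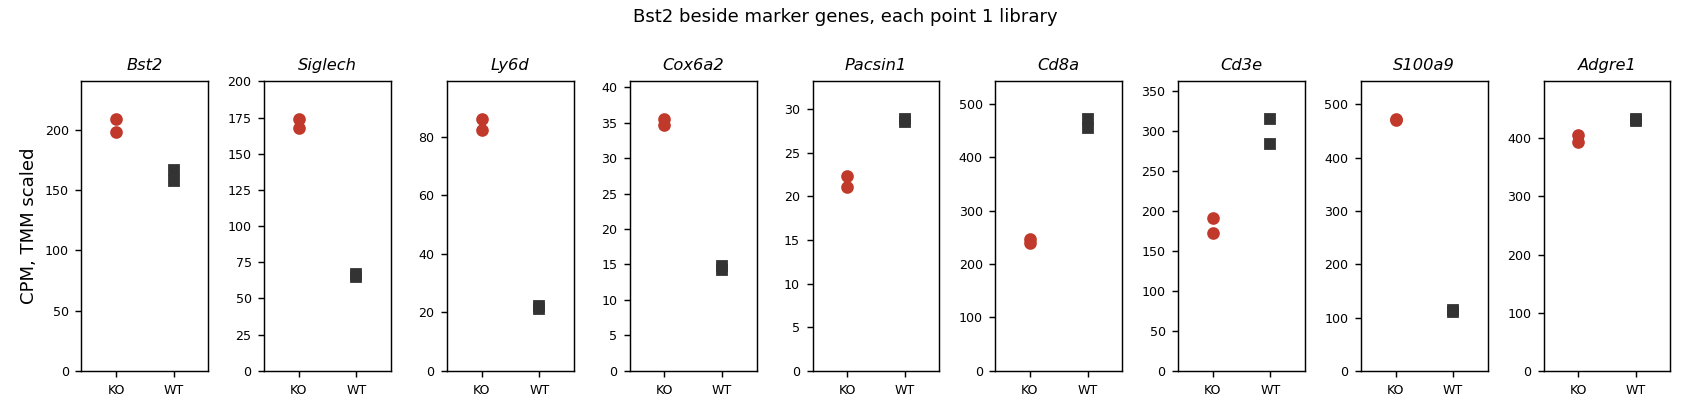
CPM (TMM scaled, axes from 0) of Bst2, of 4 plasmacytoid dendritic cell markers (Siglech, Ly6d, Cox6a2, Pacsin1), of Cd8a and Cd3e for T cells, S100a9 for neutrophils and Adgre1 for macrophages, with 1 point per library. Bst2, Siglech, Ly6d, Cox6a2 and S100a9 are higher in both KO libraries, whereas Cd8a, Cd3e, Pacsin1 and Adgre1 are lower in both, Adgre1 only by a small margin (394 and 406 CPM in KO against 430 and 433 CPM in WT).

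Upstream of the members, the receptor and its signal chain also moved unequally. None of 17 searched type I interferon ligand genes was listed in the tables. Each listed gene had at least 20 counts over the 4 libraries, so lower counts of these ligand genes are not excluded. Ifnar2, a receptor chain, rose to 80.3 and 74.3 CPM in KO, against 65.3 and 59.7 CPM in WT (log2 fold change 0.31, adjusted p = 0.0186), a call lost without WT replicate 2 (adjusted p = 0.162). Ifnar1, the other chain, did not pass at 205 and 228 CPM in KO and 247 and 233 CPM in WT (-0.14, adjusted p = 0.141). Both receptor kinases fell: Jak1 had 265 and 287 CPM in KO and 349 and 343 CPM in WT (-0.33, adjusted p = 0.00148), and Tyk2 had 68.5 and 69.3 CPM in KO and 92.6 and 88.4 CPM in WT (-0.39, adjusted p = 0.00208). The transcription factor gene Stat2 did not pass at 36.2 and 31.0 CPM in KO and 39.0 and 37.1 CPM in WT (-0.18, adjusted p = 0.294). With Irf9 this made 2 lower, 1 higher and 3 not passing of the 6 genes given here. Of all tested genes 11.0% were lower and 10.1% higher.

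**Figure D4:**
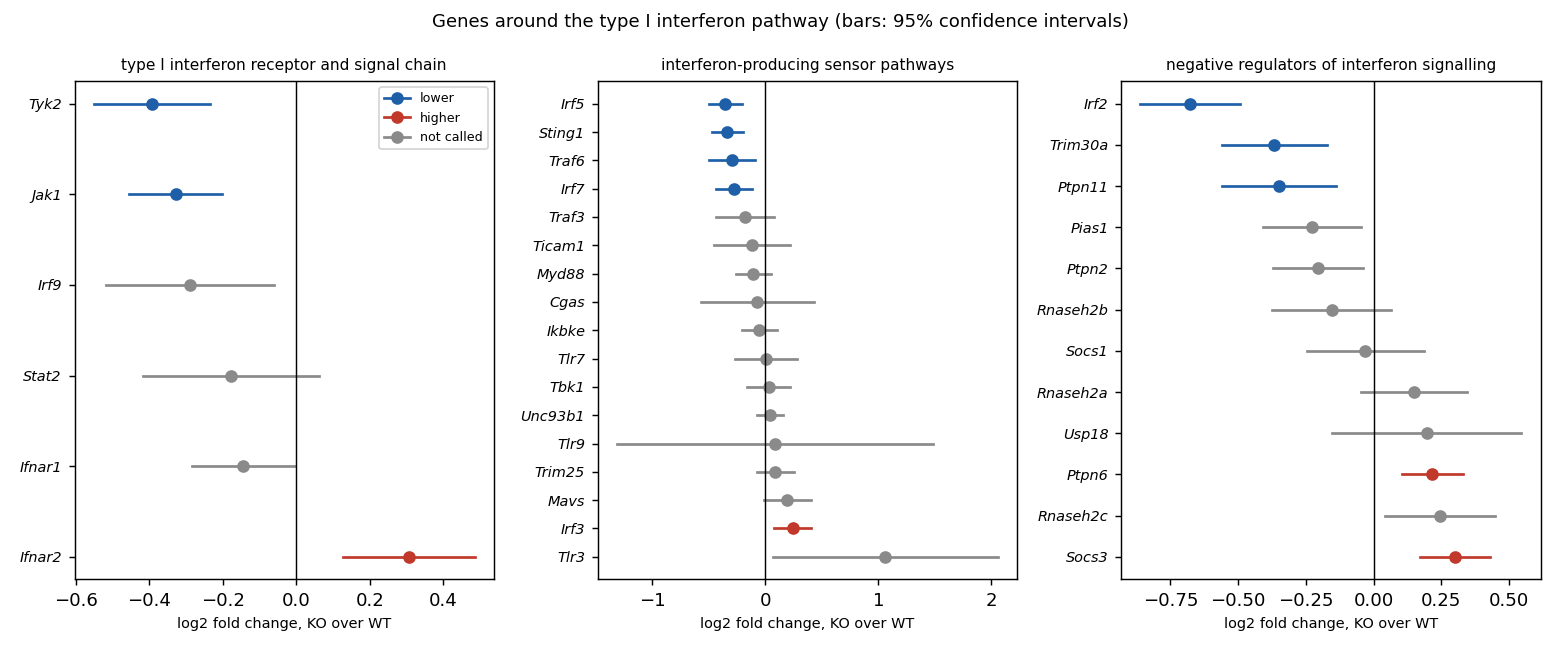
Log2 fold change, KO over WT, with 95% confidence intervals for the receptor and signal chain, the sensor pathways that produce interferon, and negative regulators. Called genes lie on both sides of 0 in each panel; the horizontal scales differ between panels.

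Sensor pathways that lead to interferon production, which share Irf7 with the members, showed 4 lower and 1 higher of 17 tested genes. Over all tested genes 11.0% were lower and 10.1% higher, shares that also stand beside the count of negative regulators below. Sting1, the adaptor for cytosolic DNA, had 127 and 119 CPM in KO and 157 and 153 CPM in WT (log2 fold change -0.34, adjusted p = 0.00215). Irf5, a factor of Toll-like receptor signalling, had 124 and 138 CPM in KO and 170 and 165 CPM in WT (-0.35, adjusted p = 0.00229). Traf6, a ubiquitin ligase of that pathway, changed by -0.29 (adjusted p = 0.0443), and Irf3, the factor that starts interferon transcription, by 0.24 (adjusted p = 0.0366). Traf6 lost its call in 4 alternatives, and so did Irf3, both with DESeq2 and without KO replicate 1 or WT replicate 1 (highest adjusted p = 0.351 for Traf6 and 0.181 for Irf3). Without KO replicate 1, without WT replicate 1 or with library totals alone 2 of the 17 were lower. Of 12 tested negative regulators, which share Usp18 and Trim30a with the members, 2 were higher and 3 lower, against 1 and 1 without WT replicate 1 and 3 and 2 with library totals alone. Irf2, a repressor at ISREs, had 42.3 and 45.7 CPM in KO and 70.3 and 70.4 CPM in WT (-0.68, adjusted p = 0.000114), with no overlap and nearly equal WT values. Socs3, a cytokine-induced inhibitor of JAK signalling, rose to 249 and 259 CPM in KO against 214 and 198 CPM in WT (0.30, adjusted p = 0.00331), and the phosphatase gene Ptpn6 rose by 0.22 (adjusted p = 0.0101; 0.0908 without WT replicate 1 and 0.0552 without KO replicate 2). The phosphatase gene Ptpn11 changed by -0.35 (adjusted p = 0.0224; 0.0702 with library totals alone and 0.259 without WT replicate 1).

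A wider list of interferon-induced genes outside the members leaned the same way. Of 47 tested genes 21 were lower and 4 higher, where 11.0% of all tested genes were lower and 10.1% higher. The median log2 fold change was -0.22 against -0.0037 over all tested genes. Without WT replicate 1 or without WT replicate 2 the counts were 14 lower and 3 higher, and with library totals alone 13 and 6. Shisa5, a pro-apoptotic membrane protein gene, had 725 and 661 CPM in KO and 1056 and 1090.4 CPM in WT (-0.63, adjusted p = 7.04e-06). Nlrc5, the activator of MHC class I genes, had 79.5 and 95.1 CPM in KO and 148 and 139 CPM in WT (-0.72, adjusted p = 5.95e-05). Ly6a, which encodes the surface protein Sca-1, had 139 and 144 CPM in KO and 210 and 203 CPM in WT (-0.55, adjusted p = 2.71e-05). Phf11b changed by -0.70 (adjusted p = 4.32e-05).

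Rises in that wider list were no more frequent than over all tested genes. They were led by Ifitm1, which encodes a membrane protein that restrains viral entry. Ifitm1 had 188 and 193 CPM in KO and 83.5 and 90.3 CPM in WT (log2 fold change 1.13, adjusted p = 1.02e-07), a larger change than that of any called member. Its relatives differed: Ifitm2 rose by 0.29 (adjusted p = 0.00278), whereas Ifitm3 fell by 0.19 (adjusted p = 0.0210), a call lost, among other settings, with library totals alone and without replicate 2 of either group (highest adjusted p = 0.183). Slfn4, a Schlafen gene expressed in myeloid cells, had 75.5 and 71.5 CPM in KO and 41.0 and 39.7 CPM in WT (0.87, adjusted p = 1.29e-05). Lgals9, which encodes galectin-9, changed by 0.17 (adjusted p = 0.0360), a call lost, among other settings, without KO replicate 2 or either WT library (highest adjusted p = 0.184). Neutrophil markers were higher in the same libraries, and their part in these rises was not tested.

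The interferon gamma axis moved beside the antiviral genes. Ifng had 89.4 and 89.5 CPM in KO and 161 and 168 CPM in WT (log2 fold change -0.88, adjusted p = 8.33e-07), and its target Cxcl9 had 15.8 and 20.6 CPM in KO and 64.9 and 54.7 CPM in WT (-1.71, adjusted p = 1.90e-06). Cxcl10, a chemokine induced by either type of interferon, had 49.1 and 52.4 CPM in KO and 84.5 and 79.6 CPM in WT (-0.69, adjusted p = 6.12e-05). Over 12 tested genes of the axis, which include Jak1, 6 were lower and 1, Ifngr2, was higher (0.26, adjusted p = 0.0367). Of all tested genes 11.0% were lower and 10.1% higher. The call of Ifngr2 was lost with DESeq2 and without KO replicate 1 or either WT library (highest adjusted p = 0.218). The number lower was 4 without WT replicate 1 or under scaling by library totals alone, and 8 without KO replicate 2. Which interferon, or which cell type, the values of the members follow was not tested.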

How the data were processed

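Each library had 1 deposited table. The deposited counts, per the file headers, are unnormalized whole reads per gene. FPKM values, deposited in the same tables, served for levels between genes and entered no test. In the submitters' processing notes the build is mm10, and the tools, with no roles or order, are featureCounts, Bowtie2, Trim Galore 0.4.4, DESeq2 and edgeR. Not given in the sources used here are the annotation, the strandedness and the counting settings. Each listed gene had at least 20 counts over the 4 libraries.

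Members were matched by symbol. Members and lists were chosen with earlier results of these data known, so no test was made over a list. The test was edgeR's quasi-likelihood F test (version 4.0.16, R 4.3.3; TMM factors; filterByExpr at 10 counts and a summed count of 15; robust fit), with Benjamini-Hochberg adjustment over 13358 genes. Unless another tool is named, adjusted p-values are from that fit, called means under 0.05, and alternatives are edgeR fits. Each SE is the fold change over the root of F. The procedure was tested on simulated data in which every gene had the same spread, so that test does not check the calls made here. Alternatives were RLE, library totals and upper quartile scaling, no filter, at least 50 counts, DESeq2 1.42.0, limma-voom (limma 3.58.1), the replicate block, leaving out each library, and leaving out mitochondrial genes. An exact permutation test of 2 against 2 libraries cannot go below p = 0.333. Counting noise alone did not account for the difference between replicates (chi-square per degree of freedom 10.0 in KO and 7.74 in WT), so none were merged. No batch is given in the labels. Named genes followed a rule: every listed member, up to 4 called genes per direction of each other pathway list and the receptor chain. Some results that the rule would name are not reported here. Ifitm3, Oas1g and the markers shown beside Bst2 were added after their values were seen. Coordinates of genes are from GENCODE M21 (GRCm38), and shared 50-base stretches are from its transcripts.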

Additional observations from a re-analysis of the deposited data

How the results depend on the processing

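Of the 17 called members 7 passed in all 13 alternatives, namely Parp14, Sp100, Zbp1, Oas1a, Samhd1, Dhx58 and Bst2. Of the other 10, all lower, each lost its call in at least 1. Another 5 members passed in some alternative only, and 12 in none. Against 16 lower members, leaving out 1 library gave 8 to 17, with library totals alone 11, with DESeq2 14, and with RLE, upper quartile, limma-voom, either filter or without mitochondrial genes 16. Without WT replicate 1 or 2 all 8 and 9 lower members were among the 16. The median of the members was -0.28 with library totals alone, against -0.36, and the median of all genes was then 0.08. Over the whole table, against 1354 higher and 1472 lower genes, leaving out 1 library gave 714 to 1605 higher and 831 to 1787 lower, and library totals alone gave 2105 higher. With the replicate number as a block (replicate block) 19 members were lower and 1 higher, the 16 plus Rsad2, Oas2 and Rtp4. That block ended the calls of Ifitm3 (adjusted p = 0.0823) and Lgals9 (adjusted p = 0.128). The numbers are not known to pair the samples: same-numbered libraries deviated with r = -0.10 over 10040 genes, and the crossed pairing, added after the data were seen, gave 20 lower and 1 higher. The widest SE among the members was 0.587 for Ifi44, whose KO libraries had 13 and 60 counts. The cause of the other shifts was not tested.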
